A study of Mus musculus with 10 samples.

Results

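The cytosolic ribosomal protein genes were compared between naive B cells and germinal centre (GC) B cells of the mouse. They were chosen by symbol alone: Rpl or Rps followed by a digit, plus the stalk genes Rplp0, Rplp1 and Rplp2 and the laminin receptor gene Rpsa, without the Rps6k kinases and without symbols marked as pseudogenes. Of 18194 genes with a probe set annotated to a single symbol, 50 met this rule. Where a gene had several such probe sets, the one with the highest average signal was read, a choice that used no contrast between groups. A gene was tested if its log2 signal was above 4 on at least 3 arrays, which 49 of the 50 genes passed. The exception was Rps16, a small-subunit gene whose only single-symbol probe set lay between 0.91 and 3.24 on all arrays. The tested genes were 20 of the large subunit, 20 of the small subunit, the 2 stalk genes Rplp0 and Rplp2, 6 paralogue forms and Rps19bp1, which the letters of the rule take although it encodes no ribosomal protein. RefSeq lists 89 protein-coding genes that fit the rule, of which 31 lie only on probe sets with several symbols and 9 on no annotated probe set, so Rplp1, Rpl5 and others were not analysed here.

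The study compared B cells of Balb/c mouse spleens on Affymetrix mouse arrays, and each array holds the RNA of 1 sample. The 4 naive samples came from unimmunized Balb/c mice and are not stated to carry a transgene. The GC samples, 3 of the B1-8 line and 3 of the V23 line, were λ+ PNA+ B220+ cells sorted by flow cytometry on day 14 after intraperitoneal immunization with 50 µg of the hapten carrier conjugate NP25-CGG in alum. Both GC lines carry an immunoglobulin heavy chain transgene (VH186.2-Tg in B1-8, V23-Tg in V23) and lack the endogenous JH locus. Immunization, the transgene, the JH deletion and the sort therefore all separate the GC groups from the naive group and cannot be told apart here. Nothing in the labels says that replicates were separate animals, so the p-values cover sample-to-sample spread that may be technical. The values are log2 signals, on which a difference of 1 is a factor of 2, and the number of arrays limits their precision.

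Ribosomal proteins assemble with ribosomal RNA in the nucleolus into the large and small subunits that translate messenger RNA in the cytosol. Their messenger RNAs are among the most abundant of any cell, and most begin with a 5′ terminal oligopyrimidine (TOP) tract, through which the kinase mTOR controls their translation by way of the repressor Larp1. Activated B cells enlarge their ribosome supply before they divide, and cells of the germinal centre divide fast. Translation and protein amount were not measured by these arrays.

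The labels were checked against marker genes. All 5 tested markers of GC B cells were called higher in the GC samples than in the naive samples, and all 5 markers of naive follicular B cells were called lower (limma, adjusted p below 0.05). Of 6 tested general B cell markers, 3 were called lower, with a list median of -0.28, and their mean level ran from 13.3 to 13.4 in naive and from 12.6 to 13.1 in GC. Markers of plasma cells were called higher for 2 and lower for 1 of 5, and 1 marker was called lower of 5 for T cells, 4 for macrophages and 2 for erythroid cells. Markers of neutrophils also moved with the groups: 8 of 8 were called higher in GC, the mean level of the list ran from 7.66 to 9.82 in the naive arrays and from 11.2 to 11.96 in the GC arrays, and none of the 8 averaged below log2 4 in either group. A sign of RNA quality moved with the groups too. The difference between the 3′ and 5′ control probe sets of Actb was 0.59 lower in GC than in naive on the log2 scale (exact permutation test over arrays, two-sided, p = 0.00476, the smallest that 210 splits allow; adjusted p = 0.00952 over 2 control genes). The same difference for Gapdh was lower by 0.36 (GC minus naive -0.36, exact permutation p = 0.0143, adjusted p = 0.0143). The part of neutrophil RNA, of the B cell markers' shift and of RNA quality in the results below was not tested.

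The ribosomal protein genes stood at the top of the range of these arrays in all 3 groups. Of 59 genes with a mean above log2 14, 31 were members, and 35 of the 50 members had a mean above log2 13. The highest gene of each array lay between 14.50 and 14.88. The members' share of the summed unlogged signal, with 1 probe set per gene, was 4.18%, 4.46%, 4.67% and 4.39% in the 4 naive arrays. It was 4.17%, 4.14% and 3.69% in the GC B1-8 arrays and 3.97%, 3.71% and 3.58% in the GC V23 arrays. Every GC array lay below the lowest naive array, by a narrow margin for the first B1-8 array. That separation was lost in other sums. With all single-symbol probe sets the first B1-8 array stood at 4.96% and the first naive array at 4.93%. With probe sets that may cross-hybridize read only for genes that had no other, they stood at 3.87% and 3.86%. The group means were 4.43% ± 0.20 (SD, n = 4) in naive, 4.00% ± 0.26 (SD, n = 3) in GC B1-8 and 3.75% ± 0.20 (SD, n = 3) in GC V23. In a pool of cells, fewer cells of a type and less RNA per cell cannot be told apart.

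**Figure D1:**
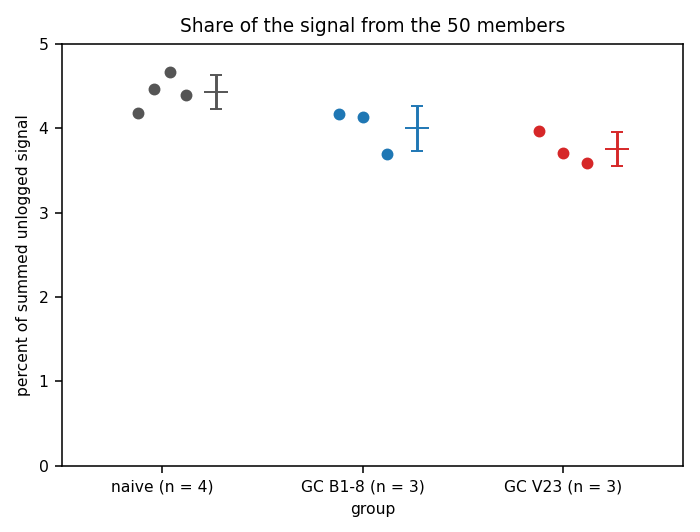
Share of the summed unlogged signal of all genes that came from the 50 ribosomal protein genes, in percent, for each array (points) with the mean and SD of each group (bars). The naive arrays sit between 4.18% and 4.67% and the GC arrays between 3.58% and 4.17%.

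The median log2 fold change of GC (mean of both lines) against naive was -0.15 over the 49 tested members and 0.06 over all 17204 tested genes. Of the members, 42 of 49 lay below 0. Among the 14 members up to log2 13, 7 lay below 0, with a median of 0.03 and an SD of 0.875. The 8 subunit genes among these had a median of -0.33, with 5 below 0. The members above log2 13 formed a tight group, with 35 of 35 below 0 and a median of -0.16. They had a range from -0.33 to -0.01 and an SD of 0.093. Other genes above log2 13 were spread more widely, with a median of 0.08, an SD of 0.394 and 100 of 244 below 0. The sets were not matched in level, with median levels of 14.35 for these members and 13.39 for the other genes. The cut used the mean of all arrays, so genes higher in GC could pass it through their GC arrays. Among the marker genes and the other lists given below, Fau, Eef1a1, Eef2, Tpt1, Pabpc1, Eif3f, Cd79b and Ms4a1 averaged above log2 14. Their fold changes ran from -0.20 to -0.04. Other non-members at that level were not listed. The direction of small shifts depended on how the arrays were scaled. When every array was shifted to a common median, the median of all genes moved to 0.16 and that of the members to -0.05, and 26 of the 35 bright members stayed below 0. With quantile normalization the members' median was -0.04, that of all genes 0.12, and 22 of the 35 lay below 0. The distance between the members' median and that of all genes was -0.21 as deposited and -0.16 with quantile normalization. Centring shifts all genes of an array alike, so it cannot change this distance.

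A distance taken within each array does not depend on such centring. The median of the 35 bright members stood above the median of the 244 other bright genes by 1.05, 1.04, 1.12 and 1.07 in the naive arrays. It stood above it by 0.856, 0.821 and 0.746 in the GC B1-8 arrays, and by 0.780, 0.683 and 0.699 in the GC V23 arrays. The naive and GC arrays did not overlap in this distance. It shows that the bright ribosomal protein signals and the other bright signals, as picked by the cut, changed unequally. It does not say which of them changed. The other bright genes lay nearer the cut, and its part in this distance was not tested.

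**Figure D2:**
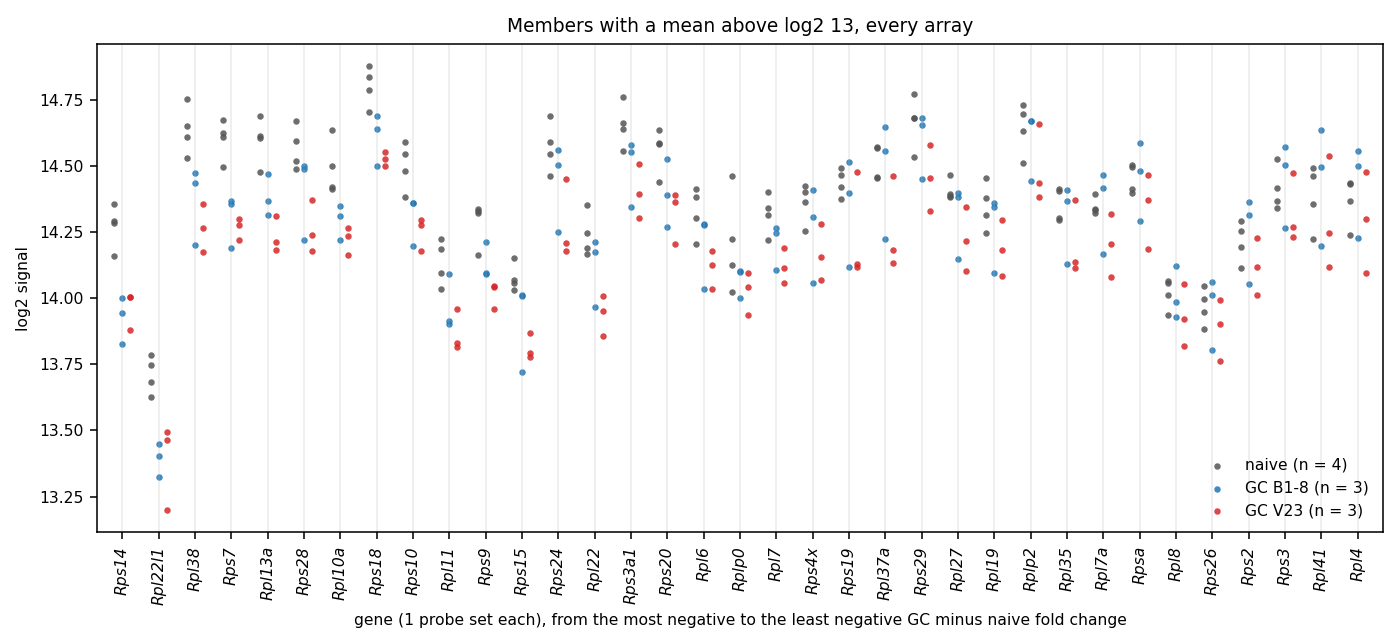
Log2 signal on every array for the 35 ribosomal protein genes with a mean above log2 13, ordered from the most negative to the least negative GC minus naive fold change. Naive points (grey) lie above most GC points (blue, red), with no overlap for genes at the left such as Rps14 and Rps7 and with overlap for genes at the right such as Rpl4 and Rpl41.

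By limma with Benjamini-Hochberg adjustment over all tested genes, 13 of the 49 members were called lower in GC than in naive B cells (26.5%), beside 21% of all genes. Only 2 of 49 were called higher, Rps27l and Rpl14, beside 20.5% of all genes. Among genes above log2 13, 9 of 35 members and 15.6% of other genes were called lower, while 0 of 35 members and 37.7% of other genes were called higher. That last share may hold genes that passed the cut through their GC arrays. As all 35 lay below 0, none of them could be called higher at any p. The GC and naive arrays did not overlap, with GC lower, for 13 members, beside 18.5% of all genes. They did not overlap, with GC higher, for 1 member, beside 17% of all genes. The share of members called lower was thus near that of all genes, while fewer were called higher. Leaving out naive replicate 3 reduced the count called lower from 13 to 7, and median centring reduced it to 4. Centring on non-member genes above log2 10 raised that count to 19.

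Rpl12, a protein of the large subunit at the base of the stalk where elongation factors bind, had the lowest fold change of all members. The tested subunit and stalk genes had a median level of 14.29. Rpl12 was read from its only single-symbol probe set, which averaged log2 10.38. Its log2 signal was 11.40, 11.21, 11.34 and 11.48 in the naive arrays, 10.26, 9.57 and 10.14 in GC B1-8, and 9.63, 9.44 and 9.36 in GC V23. Every GC array lay well below every naive array, and the V23 arrays lay lower than 2 of the 3 B1-8 arrays. The GC signal was 32.4% of naive, a log2 fold change of -1.63 ± 0.14 (SE; limma, adjusted p = 3.55e-05). It was called lower in B1-8 (-1.37 ± 0.17, limma adjusted p = 0.000379) and in V23 (-1.88 ± 0.17, limma adjusted p = 5.5e-05).

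Rpl37, a zinc-binding protein of the large subunit, measured 13.11, 13.01, 13.25 and 13.23 in naive, 12.42, 12.76 and 12.70 in GC B1-8, and 12.34, 12.68 and 12.75 in GC V23. Both lines lay below all naive arrays and covered nearly the same range. The fold change was -0.54 ± 0.11 (SE; limma, adjusted p = 0.00476), which is 68.7% of naive. Rps14, a protein of the small subunit whose human gene is lost in the 5q- syndrome, measured 14.16, 14.28, 14.36 and 14.29 in naive, 14.00, 13.94 and 13.83 in GC B1-8, and 14.00, 13.88 and 14.00 in GC V23. Its groups also did not overlap, and the fold change was -0.33 ± 0.07 (SE; limma, adjusted p = 0.00674). Rps7, a protein of the small subunit, measured 14.50, 14.62, 14.68 and 14.61 in naive, 14.37, 14.36 and 14.19 in GC B1-8, and 14.22, 14.28 and 14.30 in GC V23. All GC arrays lay below the naive ones, with a fold change of -0.32 ± 0.07 (SE; limma, adjusted p = 0.00719). These genes and Rpl22l1, described with the paralogues, were the 5 members called lower in each line. Of 23 alternative settings, the B1-8 call was lost in 12 for Rps7, 11 for Rpl22l1, 6 for Rps14 and 2 for Rpl37, and the V23 call in 5 for Rps7, 7 for Rpl22l1 and 8 for Rps14.

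Rpl14, a protein of the large subunit, went the other way. It measured 9.48, 9.14, 9.30 and 9.07 in naive, 9.87, 9.83 and 9.43 in GC B1-8, and 9.83, 9.89 and 9.93 in GC V23. The third B1-8 array lay within the naive range, while the other GC arrays lay above it. The fold change was 0.55 ± 0.12 (SE; limma, adjusted p = 0.00539), and it was called higher in B1-8 (0.47, limma adjusted p = 0.0321) and in V23 (0.64, limma adjusted p = 0.00684).

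The starts of genes that were called in opposite directions were read side by side, since the TOP tract is the feature that ribosomal protein transcripts share. Each line below gives 20 bases before and 20 bases from the RefSeq transcript start on, in build GRCm38.p6, on the strand of the gene. Capitals mark a stretch of at least 5 C or T, read from the C nearest to the start that gives one within 10 bases of it. C or T just before the capitals are left in lower case, so the capitals can be the end of a longer run. The first 4 are genes called lower, the next 2 are the genes called higher, and the last is Rps27, the parent form of Rps27l, also called lower. They lie at chr2:32961692-32961731 (plus strand, Rpl12), chr15:5116593-5116632 (plus, Rpl37), chr12:28635934-28635973 (minus, Rps7), chr11:114668560-114668599 (plus, Rpl38), chr9:120571497-120571536 (plus, Rpl14), chr9:66946066-66946105 (plus, the first of 2 starts of Rps27l) and chr3:90213629-90213668 (minus, Rps27).
Rpl12: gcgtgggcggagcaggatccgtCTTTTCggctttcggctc
Rpl37: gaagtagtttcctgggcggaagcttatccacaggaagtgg
Rps7: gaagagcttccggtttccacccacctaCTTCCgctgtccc
Rpl38: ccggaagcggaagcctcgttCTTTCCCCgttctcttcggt
Rpl14: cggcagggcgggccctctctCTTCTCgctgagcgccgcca
Rps27l: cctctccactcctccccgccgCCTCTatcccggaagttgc
Rps27: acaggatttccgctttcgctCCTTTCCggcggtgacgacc

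Read from the annotated start on, Rpl38, Rps27 and Rpl14 opened with such a stretch, which in all 3 genes continues C or T from before the start. In Rpl12, Rps7 and Rps27l the nearest stretch was read from a C within 10 bases of the start. No such run was found in the window of Rpl37. Over the 52 promoters of the 44 members that matched the RefSeq table, 8 (15.38%) opened with such a stretch at the start itself, whatever stood before it, beside 2.505% of all 32851 promoters. Within 10 bases of the start the shares were 53.85% of the members' promoters and 30.72% of all. The letters CCGGAAG or their reverse complement CTTCCGG, the core that ETS factors such as Gabpa bind, occurred in 21 of the 52 promoter windows (40.38%) and in 8.858% of all. The reverse complement itself holds a C and T run and can overlap the tract. Of the genes shown, 4 of the 5 called lower (Rps27 among them) and both called higher held such a run. The genes shown are a selection. Rps10, Rps18, Rps9, Rpl27a, Rpl22l1, Rpl13a and Rpl10a, called lower but not shown, also held a run within 10 bases, Rpl10a not at every start. Rps14 had no matched promoter.

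The other members of the large subunit called lower were Rpl27a, Rpl38, Rpl13a and Rpl10a. Rpl27a measured 9.82, 9.57, 10.62 and 10.04 in naive, 8.78, 9.07 and 9.52 in GC B1-8, and 8.17, 8.30 and 9.45 in GC V23. The groups did not overlap, although the naive arrays were wide apart (SD 0.45), and the fold change was -1.13 ± 0.31 (SE; limma, adjusted p = 0.0173). Rpl38, which in the mouse embryo is needed for the translation of Hox messenger RNAs, measured 14.53 to 14.76 in naive and 14.17 to 14.47 in GC, a fold change of -0.32 (limma, adjusted p = 0.0167). Rpl13a, which in human myeloid cells leaves the ribosome to silence inflammatory messenger RNAs, had a fold change of -0.29 (limma, adjusted p = 0.0131), and its groups did not overlap. Rpl10a had a fold change of -0.24 (limma, adjusted p = 0.0318). Rpl11, which with Rpl5 and 5S RNA binds and inhibits Mdm2 when ribosome assembly is disturbed, had a fold change of -0.22 and was not called (limma, adjusted p = 0.0531). The remaining 12 members of the large subunit, from Rpl22 at -0.21 to Rpl39 at 0.33, did not pass the test. Rpl27 was among them with its brightest probe set (-0.14; limma, adjusted p = 0.212). Its other single-symbol probe sets, each tested on its own, were called lower (-0.33 and -0.23; limma, adjusted p = 0.0078 and 0.0367). Rpl39, which lines the exit tunnel, reached 9.46 in naive and measured 9.32 to 9.80 in GC, and also did not pass (limma, adjusted p = 0.0621).

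In the small subunit, Rps27, Rps18, Rps10 and Rps9 were called lower besides Rps14 and Rps7. Rps27, also called metallopanstimulin, measured 10.01, 9.30, 9.76 and 9.41 in naive, 8.69, 9.03 and 8.22 in GC B1-8, and 7.96, 9.25 and 8.07 in GC V23. No GC array reached the lowest naive array, but the second V23 array came within 0.1 of it. Its fold change was -1.09 ± 0.29 (SE; limma, adjusted p = 0.0162), while Rps18, Rps10 and Rps9 had fold changes of -0.23, -0.22 and -0.21 (limma, adjusted p = 0.028, 0.0442 and 0.0386). Rps6, the substrate of the S6 kinases downstream of mTOR, measured 9.89, 10.05, 9.94 and 10.01 in naive, 9.93, 9.94 and 10.06 in GC B1-8, and 9.88, 10.18 and 10.32 in GC V23. The groups overlapped, and the fold change of 0.08 ± 0.10 (SE) did not pass (limma, adjusted p = 0.553). Rps19, the gene most often mutated in human Diamond-Blackfan anaemia, had a fold change of -0.15 (limma, adjusted p = 0.326). Rps3, which is also a DNA repair factor and a partner of NF-kappaB in human cells, had one of -0.03 (limma, adjusted p = 0.843). Rpsa had one of -0.05 (limma, adjusted p = 0.667). The other members of the small subunit ranged from -0.24 for Rps28 to -0.03 for Rps2 and did not pass the test.

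The stalk of the large subunit is built from Rplp0 and the acidic proteins Rplp1 and Rplp2, and it recruits and activates the elongation factors. Rplp0, a common reference gene, measured 14.02, 14.22, 14.46 and 14.13 in naive, 14.10, 14.10 and 14.00 in GC B1-8, and 14.10, 14.04 and 13.94 in GC V23. The groups overlapped, and the fold change was -0.16 ± 0.10 (SE; limma, adjusted p = 0.221). Rplp2 had a fold change of -0.10 (limma, adjusted p = 0.432). Fau, which encodes the small-subunit protein eS30 under another symbol and is not a member by the rule, measured 14.20 ± 0.10 (SD, n = 4) in naive, 14.14 ± 0.10 (SD, n = 3) in GC B1-8 and 14.02 ± 0.13 (SD, n = 3) in GC V23, and was not called (limma, adjusted p = 0.346).

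**Figure D3:**
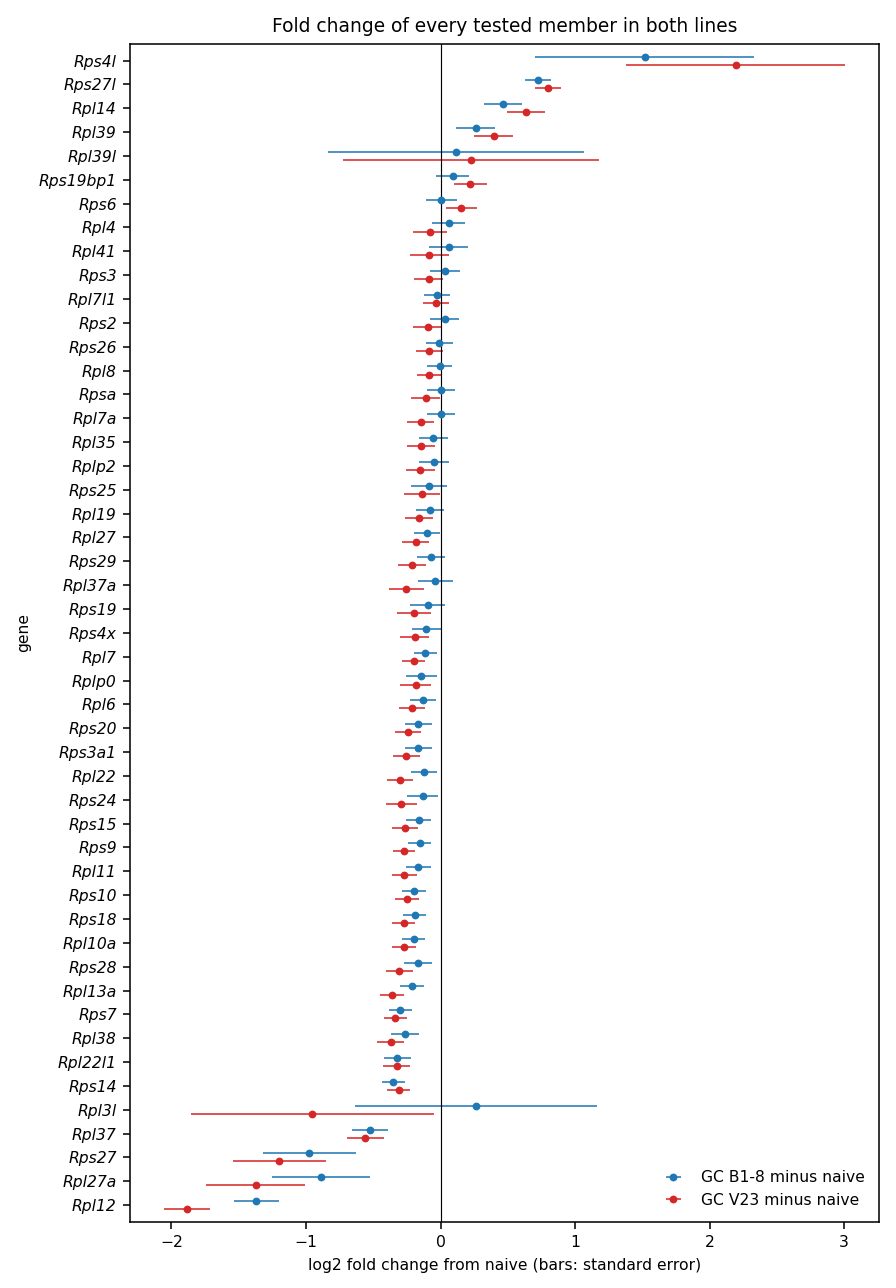
Log2 fold change from naive of the 49 tested genes in GC B1-8 (blue) and GC V23 (red), with standard errors as bars, ordered by the mean of both lines. Most genes lie between -0.4 and 0, with Rpl12 at the lower end and Rps27l, with narrow bars, and Rps4l, with wide bars, at the upper end.

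Of the 6 paralogue forms, Rps27l was called higher, Rpl22l1 was called lower and 4 were not called. Rps27l, a near copy of Rps27 that p53 activates in human cells, was the one member that was higher in every GC array than in every naive array. It measured 12.18, 12.27, 12.29 and 12.12 in naive, 13.01, 13.05 and 12.77 in GC B1-8, and 12.96, 13.04 and 13.05 in GC V23. The GC signal was 170% of naive, a fold change of 0.76 ± 0.08 (SE; limma, adjusted p = 0.000106). It was 0.72 ± 0.10 in B1-8 (limma, adjusted p = 0.00057) and 0.80 ± 0.10 in V23 (limma, adjusted p = 0.000261). Its parent Rps27 was called lower, as given above, and the difference between the 2 fold changes was not tested. The probe sets read differed in level, with a mean of 8.97 for Rps27 and 12.67 for Rps27l.

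Rpl22l1, the paralogue of Rpl22, with which it is cross-regulated in mouse lymphocytes, measured 13.63, 13.75, 13.79 and 13.68 in naive, 13.32, 13.45 and 13.40 in GC B1-8, and 13.20, 13.46 and 13.49 in GC V23. All GC arrays lay below all naive arrays, with a fold change of -0.32 ± 0.08 (SE; limma, adjusted p = 0.0132). Rpl22 itself had a fold change of -0.21 and was not called (limma, adjusted p = 0.0667), though it was called lower in V23 (-0.30, limma adjusted p = 0.0367), a call lost in 15 of 23 alternative settings. Rps4l, which RefSeq lists as a transcribed pseudogene, measured 4.01, 6.08, 3.74 and 4.11 in naive, 7.23, 6.50 and 4.28 in GC B1-8, and 7.31, 6.98 and 5.75 in GC V23. The groups overlapped through the second naive array, the third B1-8 array and the third V23 array, and the fold change of 1.86 ± 0.69 (SE) did not pass (limma, adjusted p = 0.0601). Its parent Rps4x had a fold change of -0.15 (limma, adjusted p = 0.238).

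Rpl7l1, which acts in ribosome assembly, measured 11.20 to 11.45 in naive and 11.21 to 11.45 in GC, and did not pass (fold change -0.03, limma adjusted p = 0.807). Rpl7 had a fold change of -0.16 (limma, adjusted p = 0.121). Rpl3l, the form of striated muscle, varied between 1.36 and 4.96 over the arrays with no order by group (limma, adjusted p = 0.758). Rpl39l, known from the testis, varied between 3.95 and 7.60 (limma, adjusted p = 0.89). Rps19bp1, a nucleolar binding partner of Rps19, had a fold change of 0.16 (limma, adjusted p = 0.26).

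Line by line, fewer members were called in B1-8 than in V23. In GC B1-8 against naive, 5 of 49 were called lower, beside 17.3% of all genes, and 2 were called higher, beside 16.4%. In GC V23 against naive, 15 of 49 were called lower, beside 19.7% of all genes, and 2 were called higher, beside 18.2%. Among genes above log2 13, 3 of 35 members were called lower in B1-8, beside 10.7% of other genes, and 11 of 35 in V23, beside 16%. In that range 0 of 35 members were called higher in B1-8, beside 32.4% of other genes, and 0 in V23, beside 31.6%. In B1-8, 29 of the 35 lay below 0, and none of the others was higher at an unadjusted p below 0.05 (limma). In V23 all 35 lay below 0, so none of them could be called higher at any p. The V23 arrays all lay below the naive arrays for 24 of 49 members, beside 22.6% of all genes, and all above them for 3, beside 21.8%. The B1-8 arrays all lay below the naive arrays for 13 members, beside 21.1% of all genes, and all above them for 1, beside 21.2%. The 10 members called lower in V23 and not in B1-8 were Rpl27a, Rpl38, Rpl13a, Rpl10a, Rpl11, Rpl22, Rps27, Rps28, Rps18 and Rps9, and none of them differed between the lines by the test given below. Both contrasts share the naive arrays. The median fold change of the members was -0.10 in B1-8 and -0.20 in V23, while that of all genes was 0.05 and 0.06. Median centring, quantile normalization and the replicate block each reduced the V23 count of genes called lower to 4, and quantile normalization gave 4 in B1-8 as well. Centring on non-member genes above log2 10 gave 19 called lower in V23 and 6 in B1-8. The V23 count fell to 5 without naive replicate 3 and to 6 without V23 replicate 2, and lay at 7 or 8 without V23 replicate 3, V23 replicate 1 or naive replicate 2. The B1-8 count of genes called lower was 3 without either of naive replicates 2 and 3 or either of B1-8 replicates 1 and 2, and 2 without B1-8 replicate 3. The B1-8 count of genes called higher was 1 without naive replicates 2, 3 or 4 or B1-8 replicates 1 or 2, each left out alone.

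Compared directly, GC B1-8 and GC V23 differed at 0 of 49 members (limma, adjusted p below 0.05), beside 0.0233% of all genes, which is 4 genes. At an unadjusted p below 0.05 there was 1 member, Rpl12, with a B1-8 minus V23 difference of 0.52 ± 0.18 (SE; limma, adjusted p = 0.565). With an intensity trend and robust moderation, the count of members called also was 0. Of 49 members, 41 had a lower mean in V23 than in B1-8, with a median B1-8 minus V23 difference of 0.09, beside 0.0048 over all genes. With quantile normalization that median turned to -0.02, and 27 of 49 members lay lower in B1-8. Among the 35 bright members the differences ran from -0.04 to 0.22, and their 95% intervals together reached from -0.25 to 0.53. Rpl13a and Rps9 were the 2 members whose V23 arrays all lay below their B1-8 arrays, beside 7.07% of all genes. Rpl22, Rpl13a, Rps6, Rpl14 and Rps19bp1 were the next by p in either direction, and none passed.

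Several members were measured by more than 1 probe set, and these did not always move together. The 50 members had 106 single-symbol probe sets, and 24 members had more than 1. With each probe set tested on its own, 23 of 105 were called lower in GC than in naive, beside 20.7% of 32240 probe sets, and 9 were called higher, beside 19%. Of the 65 member probe sets above log2 13, 12 were called lower and 1 higher, with fold changes from -0.37 to 0.21. Of the 25 between log2 8 and 13, 9 were called lower and 7 higher, with fold changes from -2.85 to 0.87. The wide fold changes thus came from probe sets with lower signal.

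**Figure D4:**
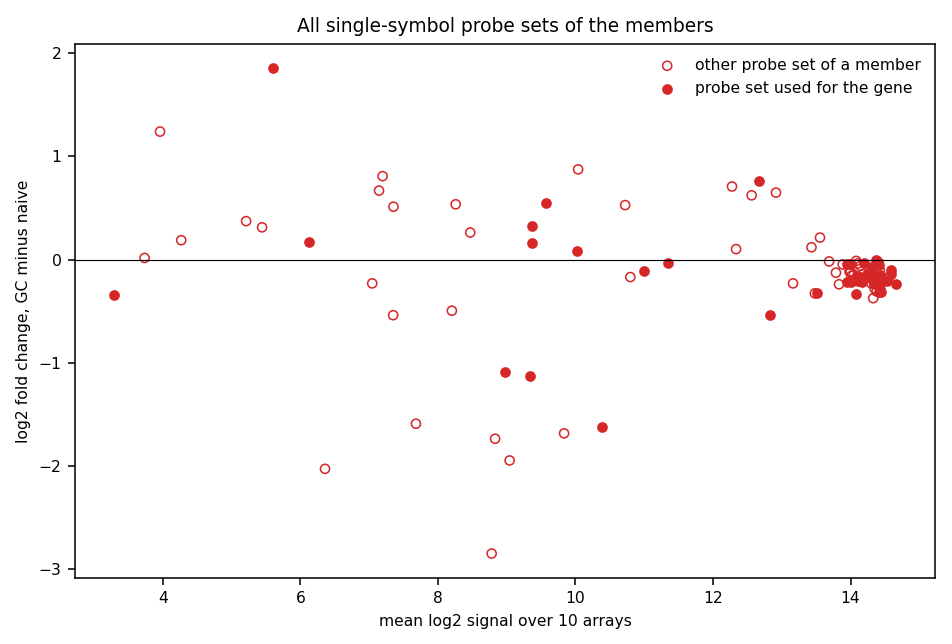
Log2 fold change of GC against naive for the 105 tested single-symbol probe sets of the members, against their mean log2 signal over the 10 arrays. Filled points are the probe sets used for the genes. Points above log2 13 lie within -0.37 and 0.21, and points below it spread from -2.85 to 1.86.

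The probe set with the lowest fold change was a second one of Rps24, a gene of the small subunit whose transcript is spliced in alternative ways at its 3′ end. It measured 10.79, 10.41, 10.39 and 10.37 in naive, 7.76, 7.75 and 8.12 in GC B1-8, and 7.68, 7.19 and 7.35 in GC V23. The GC and naive arrays lay far apart, with a fold change of -2.85 ± 0.14 (SE; limma, adjusted p = 4.35e-06). The brightest probe set of Rps24 had a fold change of -0.21 and was not called (limma, adjusted p = 0.115). Of its other bright probe sets, 2 were called lower (-0.31 and -0.37; limma, adjusted p = 0.0127 and 0.0045) and 1 was not (-0.28, limma adjusted p = 0.0553), while the dimmest lay at 0.67 and was not called (limma, adjusted p = 0.079). Second probe sets of Rps9 and Rpl41 behaved alike. That of Rps9 measured 10.02 to 10.45 in naive and 7.71 to 8.87 in GC (-1.95 ± 0.22 SE; limma, adjusted p = 0.000184). That of Rpl41 measured 9.44 to 10.15 in naive and 7.44 to 8.76 in GC (-1.74 ± 0.28 SE; limma, adjusted p = 0.00121), while the brightest probe set of Rpl41 had a fold change of -0.01 in GC and 0.06 in B1-8 alone.

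Other second probe sets were called higher. One of Rps3 measured 9.48, 9.65, 9.50 and 9.42 in naive, 10.33, 10.46 and 10.46 in GC B1-8, and 10.32, 10.47 and 10.29 in GC V23, a fold change of 0.87 ± 0.08 (SE; limma, adjusted p = 7.39e-05). Rpl13a was the 1 member with probe sets called in both directions. Its brightest was called lower, as given above, while another measured 12.46 to 12.60 in naive and 13.10 to 13.30 in GC, a fold change of 0.65 ± 0.08 (SE; limma, adjusted p = 0.000272). One more probe set of Rpl13a measured 13.40 to 13.45 in naive and 13.57 to 13.78 in GC. It was also called higher (0.21; limma, adjusted p = 0.047). The remaining one, at -0.02, was not called (limma, adjusted p = 0.894). The call lower given for Rpl13a therefore holds for its brightest probe set alone. All 3 probe sets of Rps27l were called higher, with fold changes of 0.62, 0.71 and 0.76. Where the probes lie in the transcripts was not examined, so the part of splicing, of 3′ ends and of related pseudogenes was not tested.

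**Figure D5:**
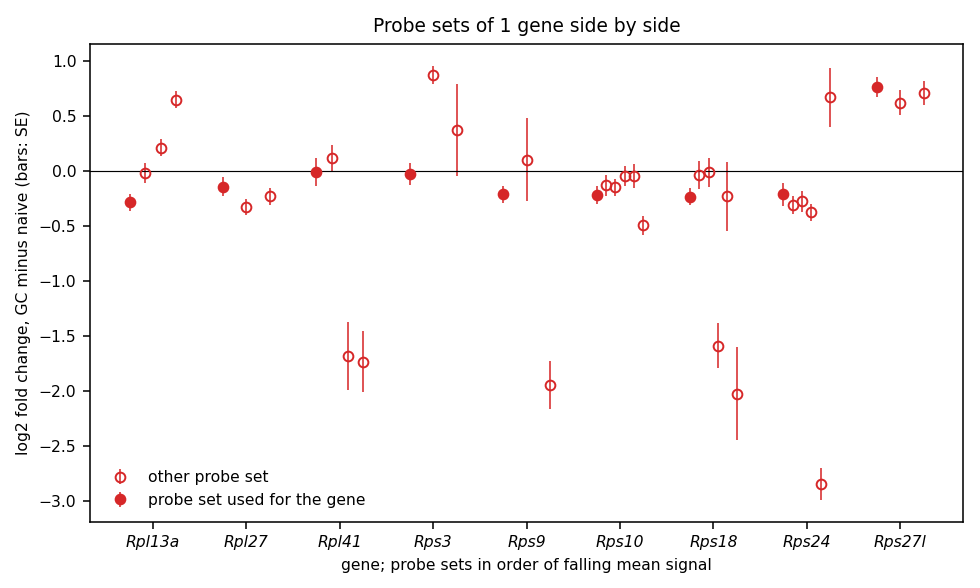
Log2 fold change of GC against naive, with standard errors, for every tested single-symbol probe set of 9 genes picked after their values were seen. Within each gene the probe sets run from bright to dim, and the filled point is the one used for the gene. The 3 probe sets of Rps27l lie together above 0, while Rps24, Rps9, Rps18 and Rpl41 have dim probe sets far below their bright ones.

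Of 19 tested genes with TOP transcripts that are not ribosomal proteins, 5 were called higher and 4 lower in GC than in naive, beside 20.5% and 21% of all genes, which is near the background. Those called lower include Gas5 and Snhg1, which are non-coding transcripts and not messenger RNAs. Eif3k and Eif3l, subunits of the initiation factor that binds the small subunit, had fold changes of 0.84 and 0.66 (limma, adjusted p = 7.84e-05 and 0.000242). Hnrnpa1, a splicing factor, had one of -1.67 (limma, adjusted p = 1.33e-05), and Gas5, a host of small nucleolar RNAs, one of -1.21 (limma, adjusted p = 2.99e-05). The median of this list was -0.04. Of 17 tested regulators of ribosomal protein synthesis, 3 were called higher and 6 lower, beside the same 20.5% and 21%. Mtor had a fold change of -0.41 (limma, adjusted p = 0.0156) and Myc, a transcription factor of ribosome genes, one of -0.70 (limma, adjusted p = 0.00506). Eif4ebp1, a repressor of translation that mTOR switches off, had one of 0.67 (limma, adjusted p = 0.00104), and Gabpa one of 0.38 (limma, adjusted p = 0.00437). Akt1s1, Rictor, Tsc1 and Larp4 were also called lower, at -0.71, -0.58, -0.33 and -0.30 (limma, adjusted p = 0.00369, 0.00272, 0.0121 and 0.0186). Eif4ebp2 was also called higher, at 0.31 (limma, adjusted p = 0.00969). The activity of mTOR was not measured.

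Of 14 tested genes listed as chaperones and assembly factors, 5 were called higher and 2 lower, beside 20.5% and 21% of all genes. These counts are given as a description and were not tested against the background. Eif6, which keeps the large subunit from joining too early, had a fold change of 0.84 (limma, adjusted p = 7.57e-05), and Rrs1, which brings the 5S RNA particle into the large subunit, one of 0.36 (limma, adjusted p = 0.00982). Pdcd2l, a relative of the Rps2 chaperone Pdcd2, had one of -1.02 (limma, adjusted p = 8.27e-05). Of the 3 tested genes of the p53 arm, Mdm4, an inhibitor of p53, was called lower (-1.34; limma, adjusted p = 1.39e-05), while Mdm2 was not called (-0.25; limma, adjusted p = 0.0923). In B1-8 alone Mdm2 was called lower (-0.39; limma, adjusted p = 0.0428), but with its probe sets averaged the B1-8 value was 0.52. In the direct comparison of the lines, none of the genes of these lists was called.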

How the data were processed

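The authors deposited 1 table of log2 signals per probe set for 10 arrays. Per the submitters' processing notes they were made with GCRMA, with no version given. The deposited log2 values go below 0 and share no quantiles between arrays, and every array has the same 2%-trimmed mean of unlogged signals, 500, as MAS5 scaling would give, so the summary method remains unsettled. Values were used as deposited. Probe sets were named from the platform annotation: 34958 had 1 symbol, 932 several and 9211 none.

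A limma 3.58.1 model (R 4.3.3) of the 3 group means was fitted to 17204 genes over all 10 arrays, with empirical Bayes moderation without trend (7 residual degrees of freedom) and two-sided tests adjusted by Benjamini-Hochberg at 0.05. The script was checked on simulated data. Genes to name were the stalk and paralogue genes with their parents, members called in both lines without overlap, the 3 smallest p per direction between the lines, members with known other roles, dim members and up to 3 genes per list and comparison. The other genes named were chosen after their values were seen, as were the second probe sets. The members and lists were chosen with earlier results of these data known. Alternatives covered the filter, the probe set, the scaling, the moderation, the replicate block and each array left out. Protein sequences were not used here.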

Additional observations from a re-analysis of the deposited data

Results flagged for a closer look

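Of 69 sets of 4 naive values, one for each gene or array quantity examined, 4 held a value far from the other 3, and chance alone gives about 1 in 20. Rps4l in naive replicate 2 was 6.08, while the other naive arrays lay between 3.74 and 4.11. Rps9 in naive replicate 1 was 14.16, below the others at 14.32 to 14.34. Rpl27 in naive replicate 3 was 14.47, above the others at 14.38 to 14.39. Mdm2 in naive replicate 3 was 11.44, while the others lay between 11.22 and 11.24. The GC groups hold 3 arrays each and were not examined in this way.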

How the results depend on the processing

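Counts are given as called lower and higher among the members, and as deposited they were 13 and 2 in GC against naive, 5 and 2 in B1-8 and 15 and 2 in V23. Quantile normalization gave 7 and 4 in GC and 4 and 4 in V23, with medians of -0.037 in GC, -0.019 in V23 and -0.015 for B1-8 minus V23, the last reversed. Median centring gave 4 lower in GC, 2 in B1-8 and 4 in V23, with medians of -0.049 in GC and -0.068 in V23. It changed the counts over all genes in GC from 3619 lower and 3521 higher to 2912 and 4165, and quantile normalization to 3179 and 4113. Centring on non-member genes above log2 10 gave 19 and 2 in GC, 6 and 2 in B1-8 and 19 and 2 in V23. The members' medians were then -0.195 in GC and -0.246 in V23. An intensity trend with robust moderation gave 22 and 4 in GC, 11 lower in B1-8 and 24 and 4 in V23. A filter at log2 6 gave 4 higher in GC and in V23, and a fit of only the groups compared gave 1 higher in B1-8. Without naive replicates 2 and 4 the counts were 4 and 1 in GC, 1 and 1 in B1-8 and 4 and 1 in V23. With every probe set tested, an alternative chosen after seeing the data, they were 23 and 9 in GC, 13 and 7 in B1-8 and 24 and 8 in V23. The causes were not tested.

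Leaving out 1 array at a time gave 7 to 13 lower and 2 to 3 higher in GC, 2 to 6 lower and 1 to 3 higher in B1-8, 5 to 15 lower and 2 to 3 higher in V23, and 0 to 0 between the lines. The medians then ran from -0.19 to -0.10 in GC, from -0.16 to -0.04 in B1-8, from -0.25 to -0.17 in V23 and from 0.05 to 0.17 for B1-8 minus V23. With the replicate block, which leaves out naive replicate 4, the counts were 7 lower in GC, 3 and 1 in B1-8 and 4 lower in V23, and with the replicate block and median centring they were 3 and 4 in GC, 3 and 1 in B1-8 and 3 and 4 in V23. Over all tested genes, deviations of same-numbered arrays correlated at -0.019 to 0.072 (9 pairs). Those of other arrays correlated at -0.066 to 0.084 (24 pairs). The value of 0.072 was that of the first B1-8 and the first V23 array. The members' share of signal fell from replicate 1 to replicate 3 in both GC lines. Whether same-numbered arrays shared a batch was not tested.

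With all probe sets of a gene averaged, Rpl13a turned to 0.14 in GC (limma, adjusted p = 0.174) and 0.091 in V23 (limma, adjusted p = 0.47), Rpl7l1 to 0.25 in GC (limma, adjusted p = 0.0481), Mdm2 to 0.52 in B1-8 (limma, adjusted p = 0.126) and Rpl41 to -0.62 in B1-8 (limma, adjusted p = 0.0379). Rpl41 turned to -1.55 in B1-8 (limma, adjusted p = 0.00632) without the probe sets that may cross-hybridize (names ending in _x_at or _s_at). In that setting a gene with no other probe set kept such a probe set, among them Rpl37, Rpl38 and Rps2. Of the members called in GC, Rpl12, Rpl37 and Rps27l kept that call in all 23 alternatives that fit 1 value per gene. Rps10 lost it in 16, Rps9 in 13, Rpl10a and Rps18 in 11 each, and the others in 1 to 6. With all probe sets in the sum the naive, B1-8 and V23 shares of signal were 5.20%, 4.75% and 4.44%. With those that may cross-hybridize read only where a gene had no other, they were 4.07%, 3.69% and 3.48%. Saturation flags were not used here, so compression near the top of the range could not be examined.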
